A study of Homo sapiens with 16 samples.

Results

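PRDM1, BCL6 and 8 further regulators of late B-cell development (BACH2, IRF4, IRF8, PAX5, XBP1, SPIB, POU2AF1 and IKZF1) were followed by RNA signal across 16 PrimeView arrays. PrimeView is an Affymetrix array on which each probe set reports 1 stretch of the transcripts of a gene. The members were every probe set that the platform annotation assigned to exactly 1 of these genes, which gave 33 of 49395 probe sets and 10 of 18132 measured genes. PAX5 had 10 probe sets, PRDM1 and BCL6 had 5 each, IRF8 and IKZF1 had 3 each, BACH2 and IRF4 had 2 each, and XBP1, SPIB and POU2AF1 had 1 each. The probe set with the highest mean over the 16 arrays stood for its gene, and the others are given beside it.

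The cells were Nalm6, an established human line of acute lymphoblastic leukaemia whose cells resemble early B-cell precursors. The 4 groups, with 4 arrays each, were cells labelled as overexpressing active CASP1 and given prednisolone, cells with the same CASP1 label left untreated, control cells given prednisolone, and control cells left untreated. Prednisolone, a synthetic glucocorticoid that acts through the glucocorticoid receptor NR3C1, was given for 24 hours, at a dose not given in the sources used here. CASP1 is an inflammatory protease, and the series asks by its title whether its cleavage of the receptor goes with glucocorticoid resistance. No label says how the line was made, whether it was 1 clone, or whether the arrays came from separate cultures, so the p-values cover the spread among these arrays and nothing wider.

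PRDM1 (BLIMP-1) is the repressor that closes the B-cell programme when a B cell becomes a plasma cell, and BCL6 is the repressor that holds the germinal centre state. The proteins repress each other's genes. BACH2 also represses PRDM1, IRF4 promotes the plasma cell step at high dose, and XBP1 then builds the secretory machinery. PAX5 and IKZF1 set B-lineage identity, POU2AF1 is a coactivator of the octamer factors, SPIB is an ETS factor, and IRF8 is an interferon regulatory factor of B-cell and myeloid development. Arrays measure RNA, so neither the proteins nor the splicing that activates XBP1 were seen here.

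Promoter sequence was read from RefSeq (GRCh38.p14) for 250 bases before each annotated gene start, and it held 15 windows for 9 members, with POU2AF1 not matched. The 2 windows below are shown because they were the member windows with TGANTCA, the core of the MAF recognition element that BACH2 binds with small MAF proteins. The core is in capitals and each window is written 5′ to 3′ on the strand of its gene. The PRDM1 window lies before the second annotated start at chr6:106098691-106098940 on the plus strand, and its core begins 42 bases before that start. The BCL6 window lies before the second annotated start at chr3:187736502-187736751 on the minus strand, and its core begins 77 bases before that start.
PRDM1 second promoter: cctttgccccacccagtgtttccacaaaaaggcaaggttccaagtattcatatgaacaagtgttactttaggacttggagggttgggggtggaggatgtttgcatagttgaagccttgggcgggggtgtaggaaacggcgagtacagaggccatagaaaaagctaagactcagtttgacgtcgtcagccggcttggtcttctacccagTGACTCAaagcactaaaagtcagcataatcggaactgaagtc
BCL6 second promoter: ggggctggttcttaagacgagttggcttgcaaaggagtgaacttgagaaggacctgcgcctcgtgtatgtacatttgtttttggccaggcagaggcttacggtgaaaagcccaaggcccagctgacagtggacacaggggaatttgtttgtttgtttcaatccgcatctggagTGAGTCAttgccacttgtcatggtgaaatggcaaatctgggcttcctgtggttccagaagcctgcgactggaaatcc
The core TGANTCA reads the same on both strands and occurred in 6.57% of all 35116 windows. Of the other motifs, searched on both strands, TGGGAA (the Ikaros core) was in 5 member windows (1 of IRF4, both of IRF8, 1 of XBP1 and 1 of IKZF1) and in 20.8% of all windows. The IRF8 windows overlap and share 1 site, so these are 4 distinct sites. AGAACA, part of the glucocorticoid receptor element, was in 1 member window (PAX5) and in 12.4% of all windows. AGNGAAAG, the PRDM1 core, was in 0 member windows and in 6.57% of all windows, and TTCCTNGAA, the BCL6 core, was in 0 member windows and in 1.37% of all windows. The motifs TGANTCA and TGGGAA were added after the windows had been read. A match describes letters in the window and says nothing of binding in these cells.

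Several facts of the arrays bear on every result. CASP1 signal averaged 5.02 and 6.95 on the log2 scale with prednisolone in cells labelled CASP1 and in control cells, and 5.69 and 7.75 untreated, so it was lower in the cells whose label says overexpression (log2 difference -1.93, adjusted p 5.07e-08, with prednisolone, and -2.06, adjusted p 2.33e-08, untreated). Whether the probes read the introduced sequence is not known, and every direction between the lines below rests on the label. TSC22D3, a direct target of the glucocorticoid receptor, was 5.79 higher with prednisolone in cells labelled CASP1 and 4.70 higher in control cells, on the log2 scale, and NR3C1 itself was 0.85 and 1.24 higher. The TSC22D3 responses differed by 1.09 (adjusted p 0.00713). Between the lines TSC22D3 differed by -0.92 untreated (adjusted p 0.000116) and by 0.17 with prednisolone (adjusted p 0.434). NR3C1 differed by -0.03 untreated (adjusted p 0.915) and by -0.42 with prednisolone (adjusted p 0.00587), and its responses by -0.39 (adjusted p 0.268). The 4 arrays numbered replicate 1 stood apart: they correlated with the other arrays of their group at 0.983 to 0.993, against 0.995 to 0.997 among replicates 2 to 4. Calls of the brightest probe sets that change without them are given below. The 11 B precursor markers averaged 10.56 to 11.22 per array, while the 7 T cell markers (3.25 to 3.56), the 8 myeloid markers (3.33 to 3.84) and the 4 erythroid markers (3.90 to 4.28) averaged at the dim end of the scale. Within these lists, the myeloid marker LYZ (lysozyme) fell with prednisolone, by 1.94 on the log2 scale in cells labelled CASP1 and by 0.95 in control cells, and was 1.34 higher in untreated cells labelled CASP1 than in untreated control cells (adjusted p 1.37e-05), with a difference between responses of -0.99 (adjusted p 0.0392). The other 7 myeloid markers were not called with prednisolone in either line. Of the B precursor markers, MME (-0.84), DNTT (-0.53) and BLNK (-0.28) fell with prednisolone in cells labelled CASP1, and IGLL1 (-0.32) and BLNK (-0.36) fell and CD24 (0.44) rose in control cells. Between the lines with prednisolone, 4 of the 11 were called, against 16.4% of all genes. These were VPREB1 (-0.31), VPREB3 (-0.45), BLNK (-0.45) and RAG2 (-0.60), all lower in cells labelled CASP1. Untreated, 4 were called, against 14.1% of all genes, with VPREB1 (-0.35), VPREB3 (-0.44) and BLNK (-0.52) lower and CD24 (0.40) higher in cells labelled CASP1. The part of these markers in the results below was not tested. The 6 plasma cell markers averaged 5.78 to 5.96 and 5.78 to 5.92 in cells labelled CASP1, with prednisolone and untreated, and 5.64 to 5.91 and 5.47 to 5.75 in control cells. These averages cover opposite differences between the lines. In cells labelled CASP1, MZB1 was lower (-1.14 with prednisolone, -1.015 untreated) and TNFRSF17 higher (1.08 and 1.60), all called. SDC1 was higher untreated (1.19, adjusted p 0.00102). MZB1 and TNFRSF17 are named after their values were seen. These are bulk measurements of a cell line, in which fewer cells holding an RNA and less of that RNA per cell cannot be told apart.

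With prednisolone, PRDM1, IRF4 and IRF8 rose in both lines, BCL6 rose and IKZF1 fell in cells labelled CASP1, and XBP1, PAX5, BACH2, SPIB and POU2AF1 passed the test in neither line. The test was limma's, with p adjusted over all genes and 0.05 as the limit for a call. In cells labelled CASP1, 5 of 10 members were called, against 6.34% of all genes, and 6 had treated and untreated arrays that did not overlap, against 11.9% of all genes. The median log2 difference of the members was 0.059, against 0.018 over all genes. In control cells 3 of 10 members were called, against 14.2% of all genes, and 4 did not overlap, against 20.9% of all genes, with a median of 0.0049 against -0.015 over all genes. The members were chosen with earlier results of these data known, and the shares over all genes include dim genes. The counts therefore describe the members and are no test of them as a group.

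**Figure D1:**
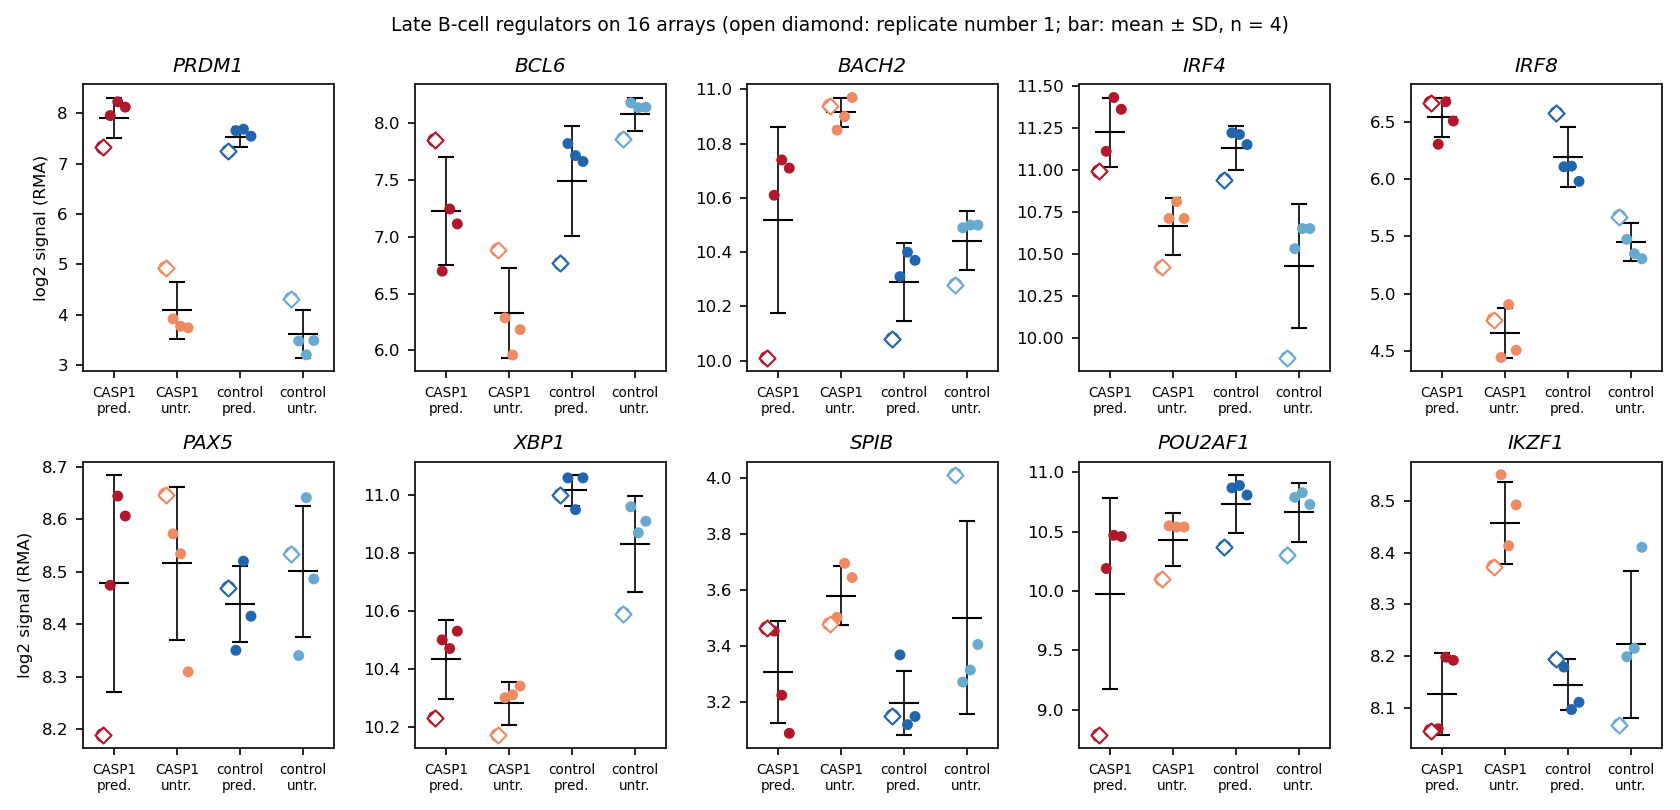
Log2 signal of the brightest probe set of each of the 10 members on every array, in panels by gene, for cells labelled CASP1 with prednisolone, cells labelled CASP1 untreated, control cells with prednisolone and control cells untreated, with replicate 1 arrays as open diamonds and bars for the mean ± SD of 4 arrays. PRDM1 separates treated from untreated arrays in both lines, at 7.25 to 8.23 against 3.21 to 4.93.

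PRDM1, the repressor of the B-cell programme, had the largest prednisolone response of the 10 members in each line. In cells labelled CASP1 it read 7.32, 7.96, 8.23 and 8.12 with prednisolone, against 4.93, 3.92, 3.77 and 3.74 untreated. In control cells it read 7.25, 7.66, 7.69 and 7.55 with prednisolone, against 4.32, 3.48, 3.21 and 3.49 untreated. No treated array overlapped an untreated one in either line, and in each line replicate 1 had the lowest treated and the highest untreated value. The log2 difference was 3.82 ± 0.26 (SE, n = 4 arrays per group, 14.1-fold, adjusted p 3.63e-08) in cells labelled CASP1 and 3.91 ± 0.26 (15-fold, adjusted p 1.1e-08) in control cells. Without the 4 replicate 1 arrays these differences were 4.29 in cells labelled CASP1 and 4.24 in control cells.

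The difference between the responses, CASP1-labelled minus control, was -0.09 on the log2 scale, with a 95% interval of -0.87 to 0.69 (adjusted p 0.974). All 5 PRDM1 probe sets were above 0 in both lines and 4 were called in each, the 3 others called lying between 0.99 and 2.04 in cells labelled CASP1 and between 0.81 and 1.94 in control cells. The dimmest, at 3.20 on average, differed by 0.27 in cells labelled CASP1 and 0.24 in control cells and was not called. With the mean of all 5 probe sets in place of the brightest, the differences were 1.77 in cells labelled CASP1 and 1.73 in control cells. The untreated level of the brightest probe set lay within the range of single T cell and myeloid marker genes (2.61 to 4.38) on 3 of 4 arrays in cells labelled CASP1 and on all 4 in control cells, and the files give no detection calls, so the untreated level was not shown to be above background. The folds may therefore understate the change, and the difference between the responses subtracts baselines that may both be background.

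BCL6, the germinal centre repressor, rose with prednisolone in cells labelled CASP1, while its difference in control cells lay below 0 and was not called. With prednisolone it read 7.85, 6.70, 7.25 and 7.12 in cells labelled CASP1, against 6.89, 6.29, 5.96 and 6.18 untreated. In control cells it read 6.77, 7.82, 7.72 and 7.67 with prednisolone, against 7.87, 8.18, 8.14 and 8.14 untreated. In cells labelled CASP1 the treated and untreated arrays overlapped only through replicate 1 of the untreated group and replicate 2 of the treated group, and in control cells every treated array lay below every untreated one. The log2 difference was 0.90 ± 0.24 (SE, 1.87-fold, adjusted p 0.033) in cells labelled CASP1 and -0.59 ± 0.24 (adjusted p 0.135) in control cells. The call in cells labelled CASP1 was lost without treated replicate 1, 3 or 4 and without untreated replicate 2, 3 or 4, where the difference was 0.69 to 0.94 (adjusted p 0.0565 to 0.114), and with only those groups in the fit (adjusted p 0.079).

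The test of the difference itself, the CASP1-labelled response minus the control response, gave 1.49 ± 0.34 on the log2 scale for BCL6 (2.81-fold, adjusted p 0.0498). Among all genes, 0.888% were called by this test, and among the members 2 were, BCL6 and IRF8. The BCL6 value lay at the threshold: leaving out any 1 of 14 of the 16 arrays ended the call, with values of 1.25 to 1.60 and adjusted p of 0.053 to 0.117. The call was kept without treated replicate 2 or untreated replicate 1 of the cells labelled CASP1, and without all 4 replicate 1 arrays, where the value was 1.30 (adjusted p 0.00109). The other processing choices that ended it were a repeated quantile normalization (1.46, adjusted p 0.0603), centring on the 75th percentile (1.48, adjusted p 0.0521), averaged probe sets (0.90, adjusted p 0.138), a replicate block (adjusted p 0.0626) and limma's trend and robust options (adjusted p 0.0548). Without the 4 replicate 1 arrays the response of control cells was also called, at -0.42 (adjusted p 0.0254). All 5 BCL6 probe sets were above 0 in cells labelled CASP1 and below 0 in control cells, with 2 called in cells labelled CASP1 and 0 called by limma in control cells, where 1 was under an unadjusted p of 0.05. The 5 probe sets report 1 transcript locus and are not replicates. With their mean in place of the brightest, the responses were 0.52 in cells labelled CASP1 (adjusted p 0.124) and -0.38 in control cells (adjusted p 0.227).

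**Figure D2:**
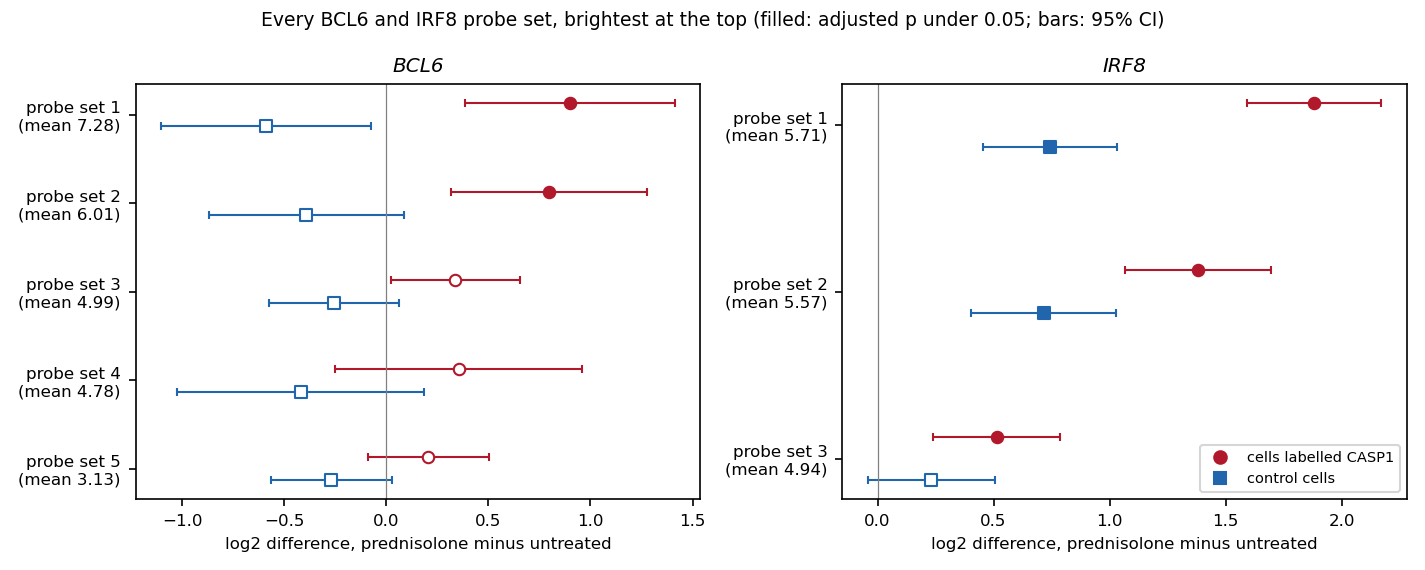
Prednisolone minus untreated log2 difference with 95% interval for every BCL6 and IRF8 probe set, brightest at the top, in cells labelled CASP1 (circles) and control cells (squares), filled where adjusted p is under 0.05. All 5 BCL6 probe sets lie right of 0 in cells labelled CASP1 and left of 0 in control cells, and all 3 IRF8 probe sets lie right of 0 in both.

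BCL6 averaged 7.23 ± 0.48 and 6.33 ± 0.40 in cells labelled CASP1, with prednisolone and untreated, and 7.49 ± 0.49 and 8.08 ± 0.15 in control cells (SD, n = 4 each). By level, untreated cells labelled CASP1 were lowest, treated cells labelled CASP1 and treated control cells lay between, and untreated control cells were highest. Of neighbouring groups in this order, treated and untreated cells labelled CASP1 were the pair called different on all 16 arrays. The untreated lines differed by -1.75 ± 0.24, that is 3.37-fold lower in cells labelled CASP1 (adjusted p 8.56e-05), and the treated lines by -0.27 (adjusted p 0.53). The last value depended on replicate 1, which gave 1.09 on its own arrays, while the 12 other arrays gave -0.72 (adjusted p 0.000852).

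BACH2, the partner of small MAF proteins that represses PRDM1 before the plasma cell step, was bright in all groups. It read 10.01, 10.61, 10.74 and 10.71 with prednisolone in cells labelled CASP1, against 10.94, 10.85, 10.90 and 10.97 untreated. The treated arrays all lay below the untreated ones, but the difference of -0.40 ± 0.13 was not called (adjusted p 0.0827), and it was called without the 4 replicate 1 arrays, at -0.22 (adjusted p 0.0451), and with a replicate block (adjusted p 0.0255). In control cells BACH2 read 10.08, 10.31, 10.40 and 10.37 with prednisolone, against 10.28, 10.49, 10.50 and 10.50 untreated, and these overlapped (difference -0.15, adjusted p 0.58). The untreated lines did differ, by 0.47 ± 0.13 (adjusted p 0.0194), higher in cells labelled CASP1, a call lost without untreated replicate 4 of those cells (0.46, adjusted p 0.05) or untreated replicate 1 of the control cells (0.42, adjusted p 0.0582). With prednisolone the lines differed by 0.23 (adjusted p 0.275), called without treated replicate 1 of the cells labelled CASP1 (0.40, adjusted p 0.00557). The second BACH2 probe set had the same signs and was not called in any comparison.

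IRF4, which promotes the plasma cell step, rose in both lines. It read 10.99, 11.11, 11.43 and 11.36 with prednisolone in cells labelled CASP1, against 10.42, 10.71, 10.81 and 10.71 untreated. In control cells it read 10.94, 11.22, 11.21 and 11.15 with prednisolone, against 9.88, 10.53, 10.65 and 10.65 untreated. Every treated array lay above every untreated one in each line, by 0.56 ± 0.15 on average in cells labelled CASP1 (SE, 1.48-fold, adjusted p 0.0319) and by 0.70 ± 0.15 in control cells (1.63-fold, adjusted p 0.00327). The call in cells labelled CASP1 was lost without treated replicate 3 or 4 and without untreated replicate 1, 2 or 4, at 0.48 to 0.58 (adjusted p 0.0624 to 0.102), and with its probe sets averaged, at 0.47 (adjusted p 0.262). The call in control cells was kept in every alternative. The second, dimmer IRF4 probe set differed by 0.39 in cells labelled CASP1 (adjusted p 0.59) and by 1.11 in control cells (adjusted p 0.019).

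IRF8, a regulator of B-cell and myeloid fate, rose in both lines and by more in cells labelled CASP1. It read 6.67, 6.30, 6.68 and 6.51 with prednisolone in cells labelled CASP1, against 4.77, 4.44, 4.91 and 4.51 untreated. In control cells it read 6.58, 6.11, 6.11 and 5.98 with prednisolone, against 5.67, 5.47, 5.35 and 5.30 untreated. No treated array overlapped an untreated one in either line. The difference was 1.88 ± 0.14 (SE, 3.68-fold, adjusted p 6.44e-08) in cells labelled CASP1 and 0.74 ± 0.14 (1.67-fold, adjusted p 0.000824) in control cells, and the responses differed by 1.14 ± 0.19 (adjusted p 0.00713).

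The IRF8 difference between responses went with different untreated levels, 4.66 ± 0.22 in cells labelled CASP1 and 5.45 ± 0.17 in control cells (SD, n = 4 each, difference -0.79, adjusted p 0.000659). The untreated arrays of cells labelled CASP1 (4.44 to 4.91) lay near the array medians (4.85 to 4.93) and below the brightest erythroid marker gene (mean 5.07). Without detection calls that level was not shown to be above background, so the difference between responses may subtract a background baseline. With prednisolone the levels were 6.54 ± 0.17 and 6.19 ± 0.26, a difference of 0.34 that was not called (adjusted p 0.101) but was called without treated replicate 1 of the control cells (0.47, adjusted p 0.0187) and with a replicate block (adjusted p 0.0262). The brightest IRF8 probe set belongs to a type whose probes can match other transcripts. The other 2 probe sets gave 1.38 and 0.51 in cells labelled CASP1, both called, and 0.72 (called) and 0.23 (not called) in control cells. Their differences between responses, 0.67 and 0.28, were not called (adjusted p 0.223 and 0.698), and with the mean of the 3 probe sets the difference between responses was 0.69 (adjusted p 0.041). Between the untreated lines these other 2 probe sets differed by -0.38 and -0.03, not called (adjusted p 0.112 and 0.934). The call of IRF8 between the untreated lines was kept in every alternative, the mean of the 3 probe sets included.

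**Figure D3:**
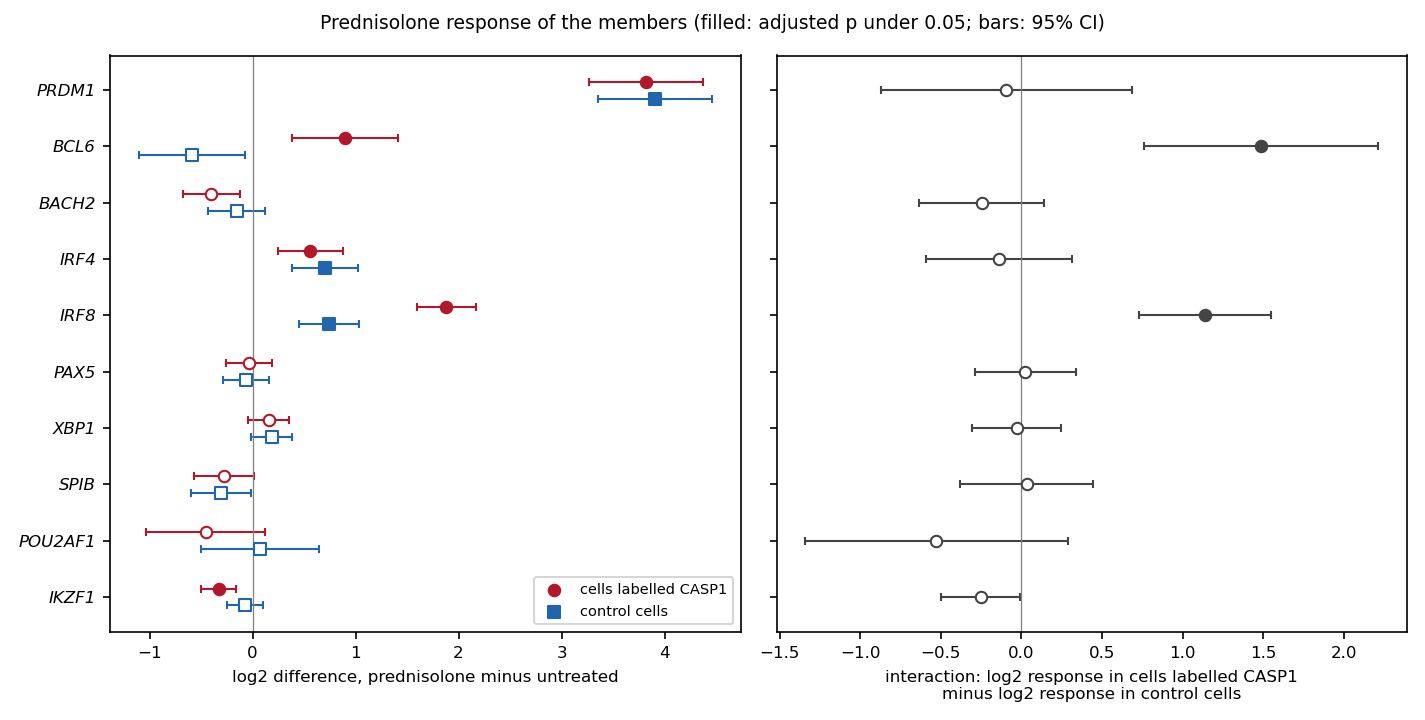
Prednisolone minus untreated log2 difference with 95% interval for the brightest probe set of each member in cells labelled CASP1 (circles) and control cells (squares), and on the right the CASP1-labelled minus the control response, filled where adjusted p is under 0.05. PRDM1 lies at 3.82 in cells labelled CASP1 and 3.91 in control cells, BCL6 lies at 0.90 and -0.59, and BCL6 and IRF8 are the filled points on the right.

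IKZF1 (Ikaros), a zinc finger factor of lymphoid identity, fell with prednisolone in cells labelled CASP1. It read 8.06, 8.06, 8.20 and 8.19 with prednisolone, against 8.37, 8.55, 8.41 and 8.49 untreated, without overlap. The difference was -0.33 ± 0.08 (SE, 1.26-fold, adjusted p 0.021) in those cells and -0.08 (adjusted p 0.693) in control cells. The call was lost without treated replicate 2 or untreated replicate 2 or 4, at -0.32 to -0.30 (adjusted p 0.0506 to 0.0731), with its probe sets averaged, at -0.23 (adjusted p 0.0714), and with only the groups compared (adjusted p 0.0711). Of the other 2 IKZF1 probe sets, 1 was at -0.39 in cells labelled CASP1 (adjusted p 0.0548) and -0.35 in control cells (adjusted p 0.0526), and 1 was at 0.04 and 0.23, not called. The lines' responses were not shown to differ (difference -0.25, adjusted p 0.469). The untreated lines differed by 0.23 (adjusted p 0.0715), called without untreated replicate 4 of the control cells (0.30, adjusted p 0.0303), without the dimmest genes (adjusted p 0.0457) and after repeated quantile normalization (adjusted p 0.0201) or 75th percentile centring (adjusted p 0.0277).

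PAX5, the factor of B-lineage commitment, was called in no comparison. It averaged 8.48 ± 0.21 and 8.52 ± 0.15 in cells labelled CASP1, with prednisolone and untreated, and 8.44 ± 0.07 and 8.50 ± 0.13 in control cells (SD, n = 4 each). The prednisolone differences were -0.04 in cells labelled CASP1, with a 95% interval of -0.26 to 0.19, and -0.06 in control cells, with an interval of -0.28 to 0.16. None of its 10 probe sets was called in any of the 5 comparisons by limma, and 5 of the 50 tests were under an unadjusted p of 0.05. For all 10 the CASP1-labelled response was above the control response, by 0.0092 to 0.51, where the median over all genes was 0.0345. These probe sets report 1 gene on the same arrays and are not replicates.

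POU2AF1, the octamer coactivator, carried the widest spread of any group of arrays among the members. With prednisolone it read 8.78, 10.19, 10.47 and 10.46 in cells labelled CASP1, against 10.10, 10.55, 10.54 and 10.54 untreated. In control cells it read 10.37, 10.87, 10.89 and 10.81 with prednisolone, against 10.30, 10.79, 10.83 and 10.73 untreated. Replicate 1 was lowest in every group, by 0.45 to 1.59 below the mean of the other 3 arrays. The prednisolone differences, -0.46 in cells labelled CASP1 (adjusted p 0.427) and 0.07 in control cells (adjusted p 0.94), were not called. Between the treated lines it differed by -0.76 (adjusted p 0.069), and this difference was called without treated replicate 3 or 4 of the cells labelled CASP1, at -0.92 in both cases (adjusted p 0.0382 and 0.0388), with a replicate block (adjusted p 0.00519), and without the 4 replicate 1 arrays, at -0.48 (adjusted p 0.000618).

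SPIB, the ETS factor, gave dim signal throughout, from 3.09 to 4.01 on single arrays, which is within the range of T cell and myeloid marker genes. Its prednisolone differences of -0.27 in cells labelled CASP1 (adjusted p 0.322) and -0.30 in control cells (adjusted p 0.186) were not called. Without the 4 replicate 1 arrays the difference in cells labelled CASP1 was called, at -0.36 (adjusted p 0.0338). In cells labelled CASP1 no treated array (3.09 to 3.46) overlapped an untreated one (3.48 to 3.69).

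XBP1, the regulator of the secretory stress response, differed between the lines and not detectably with treatment. With prednisolone it read 10.23, 10.50, 10.47 and 10.53 in cells labelled CASP1, against 11.0, 11.06, 10.95 and 11.06 in control cells. Untreated it read 10.17, 10.30, 10.31 and 10.34 in cells labelled CASP1, against 10.59, 10.96, 10.87 and 10.91 in control cells. The lines did not overlap in either condition, and XBP1 was 1.5-fold lower in cells labelled CASP1 with prednisolone (log2 difference -0.58 ± 0.09, SE, adjusted p 0.00028) and 1.47-fold lower untreated (-0.55 ± 0.09, adjusted p 0.000514). Its prednisolone differences were 0.16 (adjusted p 0.426) in cells labelled CASP1 and 0.19 (adjusted p 0.245) in control cells.

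Between the lines with prednisolone, XBP1 was the 1 member of 10 called, against 16.4% of all genes, and the 1 that did not overlap, against 19.7% of all genes. The median difference was 0.067 for the members and 0.045 for all genes. Untreated, 4 members were called, against 14.1% of all genes, with BACH2 higher and BCL6, IRF8 and XBP1 lower in cells labelled CASP1. The same number did not overlap, against 21.7% of all genes, and the median difference was 0.047 for the members and 0.0067 for all genes. The prednisolone and line comparisons use the same 4 groups of arrays and so are not independent of each other. Without the 4 replicate 1 arrays, 6 members were called between the treated lines, PRDM1 (0.47), BACH2 (0.33) and IRF8 (0.43) higher and BCL6 (-0.72), XBP1 (-0.52) and POU2AF1 (-0.48) lower in cells labelled CASP1, against 22.4% of all genes. Between the untreated lines those 12 arrays called 6 members against 21.4% of all genes, PRDM1 (0.42, adjusted p 0.00654) and BACH2 (0.41) higher and BCL6 (-2.01), IRF8 (-0.76), XBP1 (-0.60) and POU2AF1 (-0.24, adjusted p 0.0477) lower in cells labelled CASP1. The untreated PRDM1 level, and the untreated IRF8 level in cells labelled CASP1, were not shown to be above background. The dimmer PRDM1 probe sets differed by -0.02 to 0.20 between the untreated lines on all 16 arrays, none called.

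**Figure D4:**
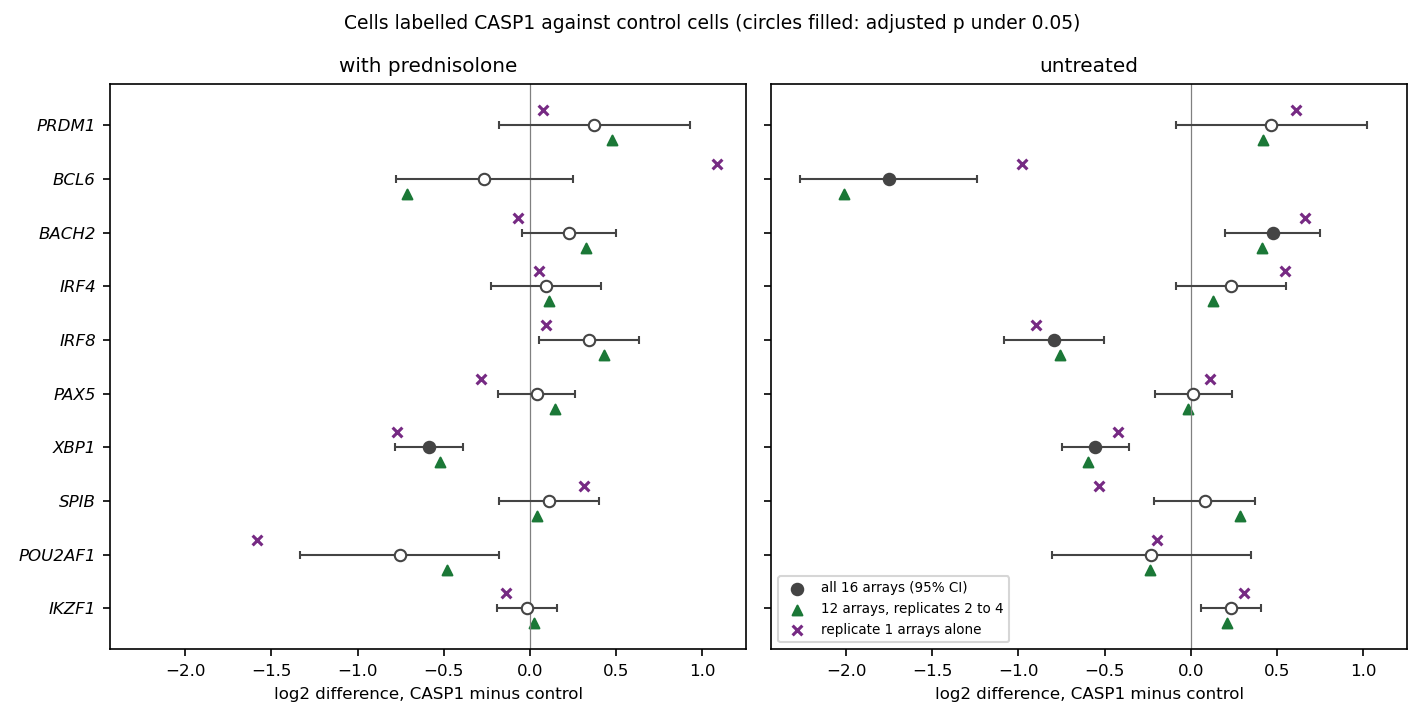
Log2 difference of cells labelled CASP1 minus control cells for the brightest probe set of each member, with prednisolone and untreated, for all 16 arrays with 95% interval (circles, filled where adjusted p is under 0.05), for the 12 arrays of replicates 2 to 4 (triangles) and for replicate 1 alone (crosses). BCL6 with prednisolone is at -0.27 on all arrays, -0.72 on the 12 arrays and 1.09 on replicate 1.

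Genes around these regulators were read from 6 lists. Counts are of genes called in cells labelled CASP1 and then in control cells, and the background shares of all genes called are 6.34% and 14.2%. Of 28 measured B-cell genes that plasma cells shut off, 8 were called in cells labelled CASP1 (3 up, 5 down) and 15 in control cells (6 up, 9 down), with a median of -0.09 and -0.07 against 0.018 and -0.015 over all genes. The inhibitor of helix-loop-helix factors ID3 fell, by 1.43 and 2.04 on the log2 scale. CIITA, the master activator of class II antigen presentation and a classic PRDM1 target, rose by 1.47 and 2.01, as did the Src-family kinase BLK (1.24 and 1.30) and the B-cell surface protein CD72 (1.28 and 0.72). The genes that fell in cells labelled CASP1 were ID3, MYC, CD83, ETS1 and BLNK, of which the last 4 are named after their values were seen.

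Of 18 measured plasma cell markers, 3 rose (ITM2C, ELL2 and SEC11C) and 2 fell (DERL3 and CD38) in cells labelled CASP1, and 3 rose (ITM2C, SDC1 and ELL2) and 3 fell (DERL3, FKBP11 and PRDX4) in control cells. ITM2C, a membrane protein, was 0.72 and 1.02 higher, and DERL3, a component of endoplasmic reticulum degradation, was lower, at -0.47 and -0.93. SDC1 (CD138), the surface marker of plasma cells, differed by 0.14 in cells labelled CASP1 (adjusted p 0.83) and rose by 0.76 in control cells. FKBP11 differed by -0.25 (adjusted p 0.267) and fell by 0.80. ELL2, SEC11C, CD38 and PRDX4 are named after their values were seen. The median of the list was 0.020 and 0.023.

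The list of 24 genes that XBP1 is known to induce holds chaperones and folding enzymes of the endoplasmic reticulum among other genes. Of the 24, 1 rose (CRELD2) and 2 fell (EDEM1 and PDIA6) in cells labelled CASP1. In control cells 5 rose (CRELD2, HSPA5, DNAJB11, DNAJC3 and CREB3L2) and 1 fell (PDIA6). CRELD2, a folding factor, differed by 0.31 in cells labelled CASP1 and by 0.70 in control cells. HSPA5 (BiP), the main chaperone of the endoplasmic reticulum, differed by 0.0015 (adjusted p 0.996) and by 0.65. DNAJB11 differed by 0.18 (adjusted p 0.266) and 0.54, and DNAJC3 by -0.13 (adjusted p 0.632) and 0.47. The difference between the lines' responses was called for 0 of the 24 by limma, and 5 of them were under an unadjusted p of 0.05. With prednisolone, 1 of the 24 was higher (SSR3) and 10 were lower in cells labelled CASP1 than in control cells, against 16.4% of all genes called, with HSPA5 at -1.19, CRELD2 at -0.51, DNAJB11 at -0.52 and DNAJC3 at -0.61. The median of the list was -0.23, against 0.045 over all genes. Untreated, 1 was higher (SSR3) and 3 were lower (SDF2L1, PDIA4 and HSPA5), against 14.1% of all genes called, with a median of -0.054 against 0.0067. EDEM1, PDIA6, CREB3L2, SSR3, SDF2L1 and PDIA4 are named after their values were seen.

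Of 18 measured genes that BCL6 is known to repress, 1 rose (CD69) and 3 fell (BCL2, S1PR1 and BCL2L1) in cells labelled CASP1, and 4 rose (CD69, ID2, CCND2 and IRF7) and 5 fell (BCL2, CDKN1A, CHEK1, S1PR1 and ATR) in control cells. The early activation marker CD69 was 2.31 and 2.78 higher. BCL2, the inhibitor of apoptosis, was lower in both, at -0.82 and -2.46, and its responses differed by 1.63 between the lines (adjusted p 0.0116). Untreated, BCL2 was already lower in cells labelled CASP1 than in control cells (-1.87, adjusted p 1.27e-05). With prednisolone that difference was -0.23 and not called (adjusted p 0.527). CHEK1, a checkpoint kinase, differed by -0.25 (adjusted p 0.13) and -1.03, and its responses also differed, by 0.78 (adjusted p 0.00519). Between the lines CHEK1 differed by -0.67 untreated (adjusted p 6.29e-05) and by 0.11 with prednisolone (adjusted p 0.459). The inhibitor of helix-loop-helix factors ID2 differed by 0.74 (adjusted p 0.148) and by 1.47. BCL2 and CHEK1 were the 2 genes of the list whose responses differed between the lines, against 0.888% of all genes. The remaining names of the list are given after their values were seen, and the median was -0.014 and -0.020.

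Of 24 measured partners and corepressors of these factors, 2 rose (TLE1 and MTA3) and 2 fell (RBBP7 and RBBP4) in cells labelled CASP1, and 2 rose (TLE1 and MTA3) and 7 fell in control cells. The Groucho corepressor TLE1 was 1.44 and 1.97 higher, and MTA3, the subunit of the NuRD complex that binds BCL6, was 0.64 and 0.86 higher. The histone-binding protein RBBP7 was lower, at -0.69 and -0.98, and the basic leucine zipper factor BATF3 was at -0.11 (adjusted p 0.826) and -0.80. Of 29 other B-lineage transcription factors, 0 rose by limma (1 at an unadjusted p under 0.05) and 4 fell (LEF1, TCF4, IRF1 and ETS1) in cells labelled CASP1, and 5 rose (IRF9, TCF3, GFI1, FOXO1 and IRF7) and 3 fell (LEF1, MEF2C and TCF4) in control cells. LEF1, a factor of the Wnt pathway, was lower, at -1.18 and -1.12, as was the E protein TCF4, at -0.76 and -0.57. MEF2C was at -0.22 (adjusted p 0.251) and -0.65, and the interferon factor IRF9 at 0.04 (adjusted p 0.907) and 0.64. RBBP4, IRF1, ETS1, TCF3, GFI1, FOXO1 and IRF7 are named after their values were seen. The list medians were -0.075 and -0.076 for the partners and -0.16 and -0.036 for the other factors.

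The genes whose log2 profile over the 16 arrays lay nearest to PRDM1, each centred on its own mean, were PIK3IP1, KLF2, SMIM3, GSN and ISG20, at a root mean square distance of 0.37 to 0.76, against an SD of 1.98 for PRDM1 itself. PIK3IP1, an inhibitor of PI3-kinase signalling, averaged 8.68 ± 0.24 and 5.20 ± 0.20 in cells labelled CASP1, with prednisolone and untreated, and 8.94 ± 0.10 and 4.66 ± 0.15 in control cells. The genes nearest to BCL6 were RETREG1, ANXA6, EFNB2, NLK and LMO7, at 0.35 to 0.48 against an SD of 0.72 for BCL6. RETREG1, an endoplasmic reticulum autophagy receptor, averaged 8.42 ± 0.50 and 8.04 ± 0.10 in cells labelled CASP1, and 8.72 ± 0.23 and 9.22 ± 0.04 in control cells. Its response differed from 0 in neither line by the test (0.37, adjusted p 0.28, and -0.50, adjusted p 0.0692). These are descriptions of likeness over arrays that share treatment groups and carry no test.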

How the data were processed

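Total RNA of Nalm6 cells was hybridised to 16 PrimeView arrays, 4 in each of 4 groups. The authors deposited log2 signals per probe set, which the submitters' processing notes attribute to RMA without a version. Array medians lay between 4.85 and 4.93, and no further normalization was made. RMA puts all arrays on 1 scale, and total RNA per cell was not measured. Of 49395 probe sets, 44988 name 1 gene, 1832 name several, and 102 are controls, and the brightest single-gene probe set stood for each of 18132 genes. Gene names came from the platform annotation. For arrays, their number limits the precision.

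Groups were compared with limma 3.58.1 in R 4.3.3, with 4 group means over 16 arrays (12 residual and 5.46 prior degrees of freedom), two-sided, with Benjamini-Hochberg adjustment over all genes, or over all single-gene probe sets for the members' other probe sets. The fit was tested on simulated data with independent noise and no replicate structure, so that test does not cover the replicate 1 pattern. The members and the 6 lists were chosen with earlier results of these data known. Named list genes were up to 4 per list with the largest difference among those called in either prednisolone comparison, with CASP1, NR3C1 and TSC22D3 as checks and the 5 nearest genes each for PRDM1 and BCL6. The alternatives were a repeated quantile normalization, centring on the 75th percentile, the mean of a gene's probe sets, a filter on the dimmest 30% of genes, only the groups compared, a replicate block, eBayes with trend and robust, each array left out, and the 4 replicate 1 arrays left out.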

Additional observations from a re-analysis of the deposited data

Results flagged for a closer look

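Among 40 sets of 4 arrays (10 genes in 4 groups), 9 held an array farther from the others than Dixon's 95% limit, where chance gives about 1 in 20. In 8 of these the array was replicate 1. In untreated cells labelled CASP1, PRDM1 was highest there, at 4.93 against 3.92 on the nearest array, and POU2AF1 lowest, at 10.10 against 10.54. With prednisolone in cells labelled CASP1, POU2AF1 was lowest there, at 8.78 against 10.19. In control cells with prednisolone, BCL6 was lowest there, at 6.77 against 7.67, and POU2AF1 lowest, at 10.37 against 10.81. In untreated control cells, BCL6 was lowest there, at 7.87 against 8.14, BACH2 lowest, at 10.28 against 10.49, and IRF4 lowest, at 9.88 against 10.53. The remaining array was replicate 2 of control cells with prednisolone, highest for SPIB at 3.37 against 3.15. The prednisolone response differed between the lines for BCL6, by 1.49 on the log2 scale (adjusted p 0.0498), and for IRF8, by 1.14 (adjusted p 0.00713).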

How the results depend on the processing

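No member changed direction among called values under any alternative. With prednisolone in cells labelled CASP1, 5 members were called by limma, against 2 with averaged probe sets, 3 with only the groups compared, 6 with the replicate block, 7 without the 4 replicate 1 arrays, and 2 to 5 with 1 array left out. Between the treated lines 1 member was called, against 3 with the replicate block, 6 without the 4 replicate 1 arrays, and 1 to 2 with 1 array left out. For the difference between responses 2 members were called, against 1 each with repeated quantile normalization, 75th percentile centring, the mean of probe sets, the replicate block, and eBayes with trend and robust (IRF8 kept and BCL6 lost each time), and 1 to 2 with 1 array left out. With prednisolone in control cells 3 were called (3 to 4 in the alternatives), and between the untreated lines 4 (3 to 6). Over all genes, 1150 were called in cells labelled CASP1 (688 to 2161), 2568 in control cells (2035 to 3969), 2974 between the treated lines (2051 to 4062), 2552 between the untreated lines (1985 to 3876) and 161 for the difference between responses (96 to 727), the highest each time without the 4 replicate 1 arrays. The replicate numbers were not taken to pair the arrays: deviations of arrays with the same number correlated at -0.116 to 0.507 over 24 pairs. The 6 pairs of replicate 1 lay at 0.191 to 0.507 and numbers 2 to 4 reached down to -0.116. Of the 16 arrays, 4 correlated best with their own number in every other group, and these were the replicate 1 arrays. SPIB was left out by the filter on dim genes. The cause of these changes was not tested.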
